A study of Mus musculus with 12 samples.

Results

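The comparison asked what gastrodin at 5 mg/kg/day did to the heart transcriptome whether or not the mice carried the angiotensin II model. It set the 4 libraries of the 5 mg groups against the 4 vehicle libraries, within arms, and so used 8 of the 12 libraries of the series. All came from hearts of wild type C57BL/6 mice at postnatal day 45. AngII 5 mg (libraries number 3 and 4) and AngII vehicle (numbers 1 and 2) were hearts of mice in which cardiac hypertrophy had been modelled with angiotensin II. Sham 5 mg (numbers 9 and 10) and Sham vehicle (numbers 7 and 8) were hearts of mice with the control operation. Gastrodin or vehicle was given by the gastric route for 7 days, and the remaining groups received 50 mg/kg/day. The sources used here do not state the sex of the mice. Nor is it stated that every library came from its own animal, so the p-values describe only the spread among these libraries, which may be technical.

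Gastrodin, a phenolic glucoside, is obtained from Gastrodia elata, an orchid. The working heart draws most of its energy from fatty acids, which are oxidised in mitochondria, and shares the remainder between glucose, lactate and ketones. The choice between fat and glucose is set in part by pyruvate dehydrogenase, which the kinase PDK4 switches off, and by nuclear receptors of the PPAR family, which raise genes of fat use when fatty acids are plentiful. Angiotensin II narrows blood vessels and makes heart muscle grow, and growing muscle classically raises natriuretic peptides, skeletal actin and fetal myosin.

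Library totals ran from 63.5 to 78.6 M counts. Mitochondrial genes took 63.1 to 74.5% of them, 7 nuclear copies of mitochondrial sequence took 16.5 to 19.1%, and ribosomal RNA loci took 0.959% in Sham 5 mg number 10 and at most 0.194% in the other 7. The share left for all other genes was 20.3 and 7.49% in AngII 5 mg and 6.34 and 8.17% in Sham 5 mg, against 14.0 and 9.47% in AngII vehicle and 7.56 and 10.4% in Sham vehicle. It differed by 0.218 percentage points on average (5 mg minus vehicle; exact permutation within arms, 2-sided p = 0.944 over 36 arrangements, with 0.0556 the smallest p they allow). AngII 5 mg number 4 scored 3.06 on the first principal component (34.8% of variance), apart from the other AngII libraries (-95.2 to -47.2) and below the Sham libraries (26.3 to 91.8). Between both AngII 5 mg libraries, 21.4% of 7583 genes with a mean of at least 1 log2 CPM differed by more than 2-fold, against 4.18 to 4.93% within the other groups. Cardiomyocyte genes were abundant in all 8 libraries, with Myh6 at 1195 to 3827 and Tnnt2 at 903 to 1275 CPM (counts per 1 M, scaled to the TMM-adjusted library size).

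No gene passed the test of an effect common to both arms. With arm as a block, the quasi-likelihood test of edgeR called 0 of 16032 genes at an adjusted p of 0.05 (percent called 0.0%). Unadjusted p-values fell under 0.05 for 316 genes (1.97%), of which 152 were higher (0.948%) and 164 lower (1.02%) at 5 mg, against 802 if p-values were evenly spread, and the distribution leaned towards 1, with 817 genes between 0 and 0.1 and 1963 between 0.9 and 1. DESeq2 called 3 genes (466 at an unadjusted p under 0.05) and limma-voom 0 (419). The biological coefficient of variation was 0.482. Genes are given below as measured values, and none of them passed edgeR's test of the common effect.

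**Figure D1:**
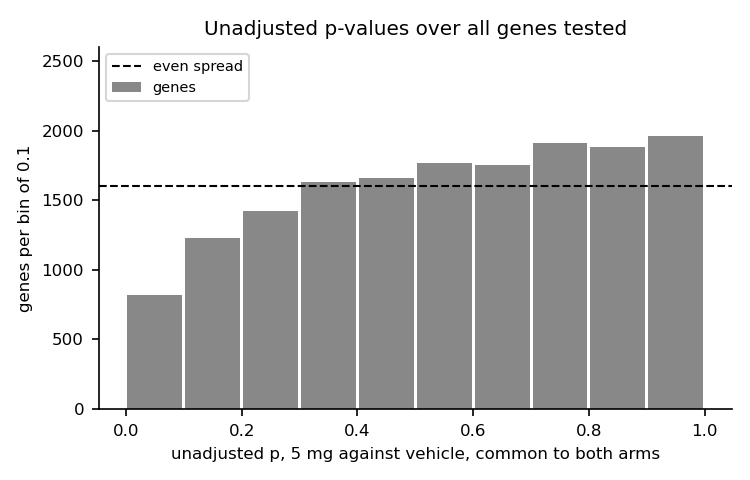
Number of genes by unadjusted p-value of the common 5 mg effect (bars, genes per bin of 0.1), with the level of an even spread as a dashed line. The lowest bin holds 817 genes and the highest 1963, against 1603.2 if even.

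The values of 5 mg hearts stood apart from vehicle hearts in both arms for 614 genes (3.83% of those tested), with both AngII 5 mg libraries on one side of both AngII vehicle libraries and both Sham 5 mg libraries on the same side of both Sham vehicle libraries. They were higher at 5 mg for 287 of them (1.79%) and lower for 327 (2.04%). If dose labels were exchangeable within arms, a gene would separate in the same direction in both with probability 0.0556 (36 arrangements). The 3.83% seen lies below that. Among the 7583 genes with a mean of at least 1 log2 CPM the shares were 1.46 and 1.75%. A further 578 genes (3.61%) separated in both arms but in opposite directions. The authors' TPM, which are not rescaled between libraries, gave 49 such genes of 6827, against 614 of 16032 from CPM.

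Pdk4 had the smallest p-value of any gene other than predicted ones. It encodes the pyruvate dehydrogenase kinase that diverts the heart from glucose to fat. Pdk4 stood at 8.67 and 12.3 CPM in AngII 5 mg and 18.0 and 19.9 CPM in Sham 5 mg, against 24.2 and 36.1 CPM in AngII vehicle and 48.4 and 46.5 CPM in Sham vehicle. All 4 libraries at 5 mg lay below all 4 vehicle libraries. The log2 fold change was -1.43 ± 0.22 (SE; 95% interval -1.91 to -0.94; edgeR adjusted p = 0.294). It was -1.53 ± 0.33 in AngII and -1.32 ± 0.33 in Sham, and the difference between arms was -0.20 ± 0.46 (edgeR adjusted p = 1.00). DESeq2 called Pdk4 (log2 fold change -1.43, adjusted p = 1.48e-07), as did edgeR with no filter on low counts (adjusted p = 4.96e-05). With 1 library left out at a time it ran from -1.51 to -1.28 (edgeR adjusted p 0.325 to 1.00), and it was -1.59 when AngII 5 mg number 4 and Sham 5 mg number 10 were both left out.

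Of the 32 genes of fatty acid uptake and oxidation, 0 passed and 6 had an unadjusted p under 0.05, all lower at 5 mg (1.02% of all genes had one in that direction). They were Pdk4, Ucp3, Hadh, Mlycd, Angptl4 and Slc27a1, the last 2 with libraries that overlap in at least one arm. The list's fitted values lay below 0 for 30 genes, against 8006 of 16032 over all genes, with a median of -0.14 against 0.00070 over all genes. In Sham 31 of 32 lay below 0 (median -0.37), and in AngII 14 did (median 0.05), and 13 lay below 0 in both; this difference between arms was not tested. The count below 0 was 20 without Sham 5 mg number 10 and 24 to 32 without any other library. The median was -0.33 without AngII 5 mg number 4 and -0.058 when Sham vehicle number 7 was left out, and it was -0.30 with AngII 5 mg number 4 and Sham 5 mg number 10 both left out. The summed level of the list was 1377 and 1583 CPM in AngII 5 mg and 1541 and 1263 CPM in Sham 5 mg, against 1334 and 1459 CPM in AngII vehicle and 2033 and 1694 CPM in Sham vehicle.

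Ucp3, a carrier of the inner mitochondrial membrane whose transcript follows fatty acid supply, stood at 1.94 and 3.16 CPM in AngII 5 mg and 2.37 and 4.81 CPM in Sham 5 mg, against 6.18 and 10.2 CPM in AngII vehicle and 7.18 and 5.16 CPM in Sham vehicle. Every 5 mg library lay below every vehicle library, and the log2 fold change was -1.23 ± 0.33 (edgeR adjusted p = 1.00). Hadh, the dehydrogenase of the third step of the beta-oxidation spiral, stood at 16.1 and 21.8 CPM in AngII 5 mg and 18.5 and 17.1 CPM in Sham 5 mg, against 22.6 and 28.8 CPM in AngII vehicle and 29.8 and 34.4 CPM in Sham vehicle. Its log2 fold change was -0.64 ± 0.21 (edgeR adjusted p = 1.00), and its groups did not overlap either. Mlycd, which removes the malonyl-CoA that blocks fatty acid entry into mitochondria, was picked after its values were seen. It lay at 9.26 to 11.1 CPM in the 5 mg libraries, against 13.5 to 16.4 CPM in the vehicle libraries (log2 fold change -0.56 ± 0.19, edgeR adjusted p = 1.00). Well-known members include Fabp3, the fatty acid binding protein of muscle, at a log2 fold change of -0.0037 ± 0.26, and Cpt1b, the carnitine transferase of muscle mitochondria, at -0.47 ± 0.43, both picked after their values were seen.

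Pdk4 and Ucp3 have the smallest p-values of the list, and the 250 bases before their annotated starts are shown from RefSeq (GRCm38.p6), with both symbols matched, since PPAR receptors are known to bind AGGTCA half-sites. Capitals mark AGGTCA on either strand. Pdk4 lies on the minus strand at chr6:5496279-5496528 and Ucp3 on the plus strand at chr7:100472741-100472990.
Pdk4: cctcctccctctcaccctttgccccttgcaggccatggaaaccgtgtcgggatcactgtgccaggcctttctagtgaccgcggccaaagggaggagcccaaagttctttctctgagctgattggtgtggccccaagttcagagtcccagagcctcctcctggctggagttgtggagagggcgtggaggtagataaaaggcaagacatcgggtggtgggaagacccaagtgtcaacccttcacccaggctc
Ucp3: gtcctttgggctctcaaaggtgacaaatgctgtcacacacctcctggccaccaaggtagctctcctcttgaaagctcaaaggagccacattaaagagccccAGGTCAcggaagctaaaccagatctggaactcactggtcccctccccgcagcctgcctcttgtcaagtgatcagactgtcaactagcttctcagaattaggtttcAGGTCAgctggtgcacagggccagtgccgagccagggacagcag
The Ucp3 window holds AGGTCA 2 times and the Pdk4 window 0 times, and 14.0% of 32807 promoter windows of this length hold it at least once on either strand. The forkhead motif TGTTTAC, searched on both strands, is in neither window and in 3.16% of all windows. The Hadh window, searched in the same way and not shown, holds neither motif.

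The other genes with the smallest p among those lower at 5 mg had varied roles. Zfp46, a zinc finger gene, stood at 0.631 and 0.494 CPM in AngII 5 mg and 0.174 and 0.499 CPM in Sham 5 mg, against 8.79 and 8.33 CPM in AngII vehicle and 4.54 and 0.184 CPM in Sham vehicle. Sham vehicle number 8 lay within the range of the 5 mg libraries. The log2 fold change was -3.39 ± 0.75 (edgeR adjusted p = 1.00), and without that library it was -3.84 ± 0.35 with an edgeR adjusted p of 0.00944, the 1 call made when any library was left out. DESeq2 also called Zfp46 (adjusted p = 0.00357), as did edgeR with no filter on low counts (adjusted p = 7.93e-17).

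Lrp10, a member of the LDL receptor family, stood at 4.27 and 2.60 CPM in AngII 5 mg and 1.33 and 1.48 CPM in Sham 5 mg, against 5.04 and 7.10 CPM in AngII vehicle and 6.23 and 4.96 CPM in Sham vehicle. The groups did not overlap in either arm, and the log2 fold change was -1.39 ± 0.31 (edgeR adjusted p = 1.00). On log2(TPM + 1) it was -0.53. The remaining 7 genes named in this direction had log2 fold changes of -1.31 to -0.77. They were the solute carrier gene Slc35f6 (-1.06 ± 0.28), the centrosomal gene Cep85 (-1.10 ± 0.31), the homeobox gene Irx3 of the ventricular conduction system (-1.31 ± 0.37) and Iqsec1, an exchange factor for ARF GTPases (-0.80 ± 0.24). Gadd45a, a DNA damage response gene, was at -0.97 ± 0.31, Frmd6, a regulator of the Hippo pathway, at -0.77 ± 0.25, and the plasma membrane calcium pump gene Atp2b4 at -0.93 ± 0.31. Cep85 and Irx3 had overlapping libraries in one arm, and the others did not overlap in either. All had an edgeR adjusted p of 1.00.

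Among genes higher at 5 mg with a mean of at least 1 log2 CPM, Igf2 had the smallest p and is described further on. Ctsz, which encodes the lysosomal protease cathepsin Z, stood at 12.5 and 11.9 CPM in AngII 5 mg and 9.74 and 9.83 CPM in Sham 5 mg, against 7.86 and 7.36 CPM in AngII vehicle and 5.55 and 7.03 CPM in Sham vehicle. All 5 mg libraries lay above all vehicle libraries, with a log2 fold change of 0.66 ± 0.19 (edgeR adjusted p = 1.00). Ctsz overlaps Nelfcd on the opposite strand, and the strand setting of the counts is unknown. Igf1, a growth factor that signals through its own receptor in heart muscle, stood at 3.56 and 3.81 CPM in AngII 5 mg and 4.79 and 5.38 CPM in Sham 5 mg, against 2.80 and 2.96 CPM in AngII vehicle and 2.82 and 2.31 CPM in Sham vehicle. Its 5 mg libraries also lay above every vehicle library (log2 fold change 0.67 ± 0.23, edgeR adjusted p = 1.00).

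Epn2, an endocytic adaptor, also separated in both arms with a log2 fold change of 1.17 ± 0.38. So did the ribosomal protein gene Rpl35a (0.98 ± 0.33), the zinc finger gene Zfp521 (0.79 ± 0.27) and the clock output factor Hlf (0.67 ± 0.24). Mier1, a chromatin corepressor (1.43 ± 0.45), the FERM domain gene Frmd5 (1.16 ± 0.38), the mitochondrial ribosomal gene Mrpl53 (1.22 ± 0.43) and Tsc22d3, a classic glucocorticoid target (0.70 ± 0.25), overlapped in at least one arm. Each had an edgeR adjusted p of 1.00. Mrpl53 shares exon bases with Gm42688 and is uncertain, and Rpl35a is a member of a family with many near-identical copies. DESeq2 also called Dnah8, an axonemal dynein gene below the level set for naming and picked after its values were seen. It stood at 3.63 and 2.90 CPM in AngII 5 mg and 0.958 and 0.570 CPM in Sham 5 mg, against 0.258 and 0.248 CPM in AngII vehicle and 0.360 and 0.0857 CPM in Sham vehicle (log2 fold change 2.81 ± 0.56, edgeR adjusted p = 1.00). Like Ctsz, Dnah8 overlaps a gene on the opposite strand (1700097N02Rik).

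**Figure D2:**
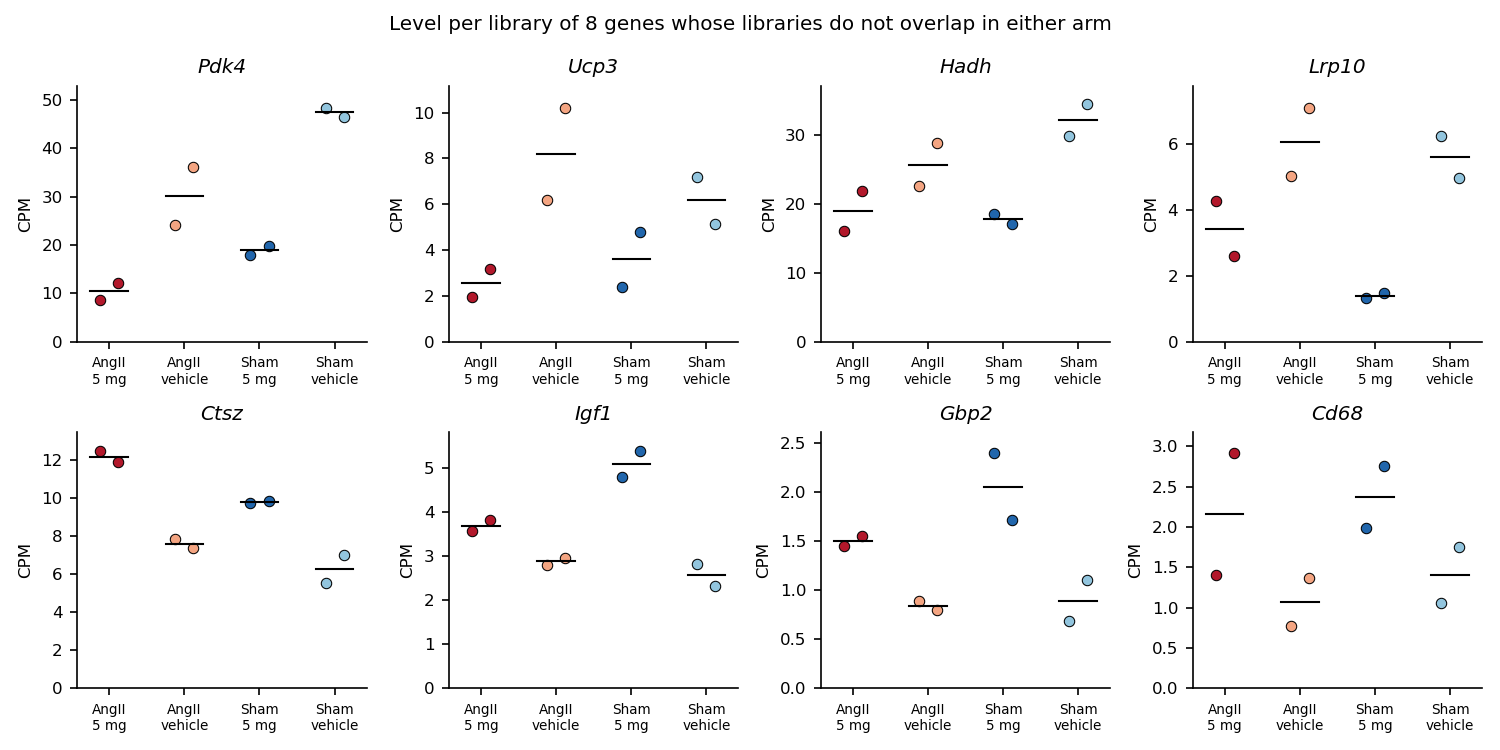
CPM of 8 genes in each of the 8 libraries (points; bars are group means, n = 2; the vertical axes start at 0). These genes were picked after their values were seen because their 5 mg and vehicle libraries do not overlap in either arm; Pdk4 lies at 8.67 to 19.9 CPM at 5 mg and 24.2 to 48.4 CPM with vehicle.

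Igf2 encodes a growth factor of fetal life and is named with its receptor in the study's title. It stood at 3.85 and 8.0 CPM in AngII 5 mg and 3.18 and 4.33 CPM in Sham 5 mg, against 3.16 and 4.41 CPM in AngII vehicle and 0.341 and 0.453 CPM in Sham vehicle. The Sham vehicle libraries were low and the other 3 groups overlapped. The log2 fold change was 1.84 ± 0.51 in common (edgeR adjusted p = 1.00), 0.64 ± 0.42 in AngII and 3.23 ± 0.48 in Sham (edgeR adjusted p = 0.195; DESeq2 adjusted p = 2.74e-06). Igf2 lies on chromosome 7 at 142650766 to 142666816 of GRCm38, minus strand, and shares exon bases with the predicted gene Gm49394 (142650769 to 142669942), which had the smallest p of all genes for the common effect (edgeR adjusted p = 0.265). Gm49394 had 183 and 375 counts in Sham vehicle and 0 in the other 6 of the 8 libraries. The level from counts assigned to it was thus at least 141-fold lower in Sham 5 mg than in Sham vehicle (floor of 3 counts over the group). With both genes summed, the level was 3.92 and 8.15 CPM in AngII 5 mg and 3.25 and 4.41 CPM in Sham 5 mg, against 3.22 and 4.49 CPM in AngII vehicle and 3.89 and 5.13 CPM in Sham vehicle. The summed log2 fold change was 0.21 ± 0.30 in common (edgeR adjusted p = 1.00), 0.64 ± 0.41 in AngII and -0.24 ± 0.41 in Sham. Gm49394 was picked after its values were seen.

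**Figure D3:**
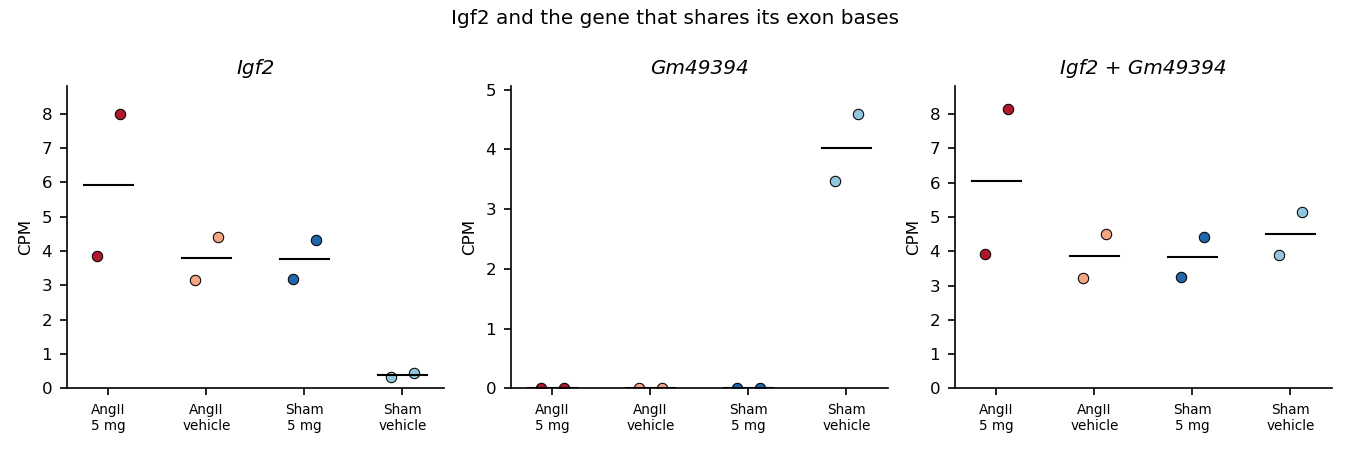
CPM of Igf2, of Gm49394, which shares its exon bases, and of both summed, in each of the 8 libraries (points; bars are group means, n = 2). Igf2 is at 0.341 and 0.453 CPM and Gm49394 at 3.47 and 4.59 CPM in Sham vehicle, where their sum is 3.89 and 5.13 CPM.

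Of the 18 tested genes of the IGF axis 0 passed, with 10 above and 8 below 0 and a median of 0.03. Beside Igf2 and Igf1, the binding protein gene Igfbp6 was at 0.64 ± 0.27. The receptor Igf2r, which carries IGF2 to lysosomes, stood at 10.8 and 5.42 CPM in AngII 5 mg and 2.66 and 5.17 CPM in Sham 5 mg, against 11.7 and 7.70 CPM in AngII vehicle and 3.31 and 4.02 CPM in Sham vehicle. Its groups overlapped in both arms, with a log2 fold change of -0.084 ± 0.30 (95% interval -0.73 to 0.57; edgeR adjusted p = 1.00).

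Across genes the log2 fold changes in AngII hearts bore little relation to those in Sham hearts. Over the 7583 genes with a mean of at least 1 log2 CPM, Pearson's r between both sets of log2 fold changes was 0.046 and Spearman's rho 0.020, and 50.5% of genes had the same sign. The arms share no library, but genes are not independent replicates. Across these genes the 5 mg minus vehicle means had a standard deviation of 0.34 log2 in each arm. The log2 difference between both libraries of a group had 0.488 to 0.833. That is a difference between single libraries, which spreads more than a difference between means of 2, so the values are not on one scale. With so few libraries a low r cannot tell whether a shared effect exists. No gene passed in either arm: edgeR called 0 in AngII (percent called 0.0%; 224 at an unadjusted p under 0.05, or 1.4%, with 0.605% higher and 0.792% lower), where DESeq2 called 9 and limma-voom 0, and 0 in Sham (0.0%; 571 genes, or 3.56%, with 1.92% higher and 1.64% lower), where DESeq2 called 25 and limma-voom 0. The test of the difference between arms called 0 as well (0.0%; 398 genes, or 2.48%, with 1.13% higher in AngII and 1.35% lower), with 16 by DESeq2 and 0 by limma-voom.

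The smallest p-values for the difference between arms belonged to a few single genes. Mlxip encodes MondoA, a transcription factor that responds to glucose. It stood at 11.9 and 6.46 CPM in AngII 5 mg, against 0.830 and 0.967 CPM in AngII vehicle, and at 4.55 and 5.15 CPM in Sham 5 mg, against 3.94 and 5.27 CPM in Sham vehicle. AngII vehicle was low and the other groups were not, and the log2 fold change was 3.36 ± 0.41 in AngII (edgeR adjusted p = 0.125), 0.07 ± 0.37 in Sham and 3.28 ± 0.54 for the difference (edgeR adjusted p = 0.755). The AngII value was called with all 12 libraries in the fit (edgeR adjusted p = 0.0140) and without AngII 5 mg number 4 (0.0327). In the same 12-library fit, Mlxip at 50 against 5 mg in AngII was at -3.39 ± 0.38 (edgeR adjusted p = 0.00635). DESeq2 called Mlxip for 5 mg against vehicle in AngII (adjusted p = 1.58e-10) and for the difference between arms (adjusted p = 0.000623). Of the 12 tested genes of MondoA, its partners and its targets, 0 passed for the common effect, with 7 above and 5 below 0; its partner Mlx was at 0.75 ± 0.33 and the repressor Mnt at -0.43 ± 0.41. Baiap2l1, a membrane-bending protein of the I-BAR family, stood at 6.92 and 10.3 CPM in AngII 5 mg, against 0.954 and 3.40 CPM in AngII vehicle, and at 1.09 and 0.499 CPM in Sham 5 mg, against 27.3 and 13.8 CPM in Sham vehicle. The directions were opposite and the groups did not overlap in either arm, with log2 fold changes of 1.99 ± 0.61 in AngII and -4.70 ± 0.69 in Sham. Slc39a7, a zinc transporter of the endoplasmic reticulum, was at -1.86 ± 0.38 in AngII and 0.15 in Sham (edgeR adjusted p = 1.00 in AngII), and shares exon bases with Gm20427. With overlapping genes summed, the AngII value was -0.36 (edgeR adjusted p = 1.00). Together with Cep85 (-1.75 ± 0.36) and Mlxip it had the smallest p of named genes in AngII, and Baiap2l1, Igf2 and Lrp10 had those in Sham.

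**Figure D4:**
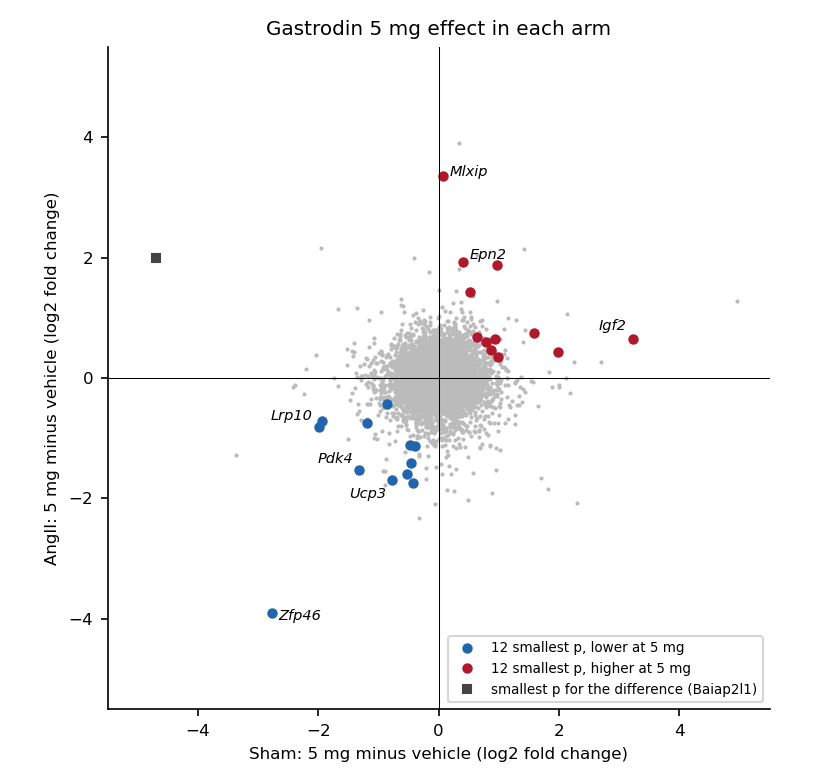
Log2 fold change of 5 mg against vehicle in AngII (vertical axis) and in Sham (horizontal axis) for 7583 genes (grey), with the 12 genes of smallest p in each direction for the common effect and Baiap2l1 marked. The axes end at 5.5 either side of 0 and leave out 5 genes; Pdk4 lies at -1.53 in AngII and -1.32 in Sham, and Mlxip at 3.36 in AngII and 0.07 in Sham.

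None of the fixed hypertrophy genes separated in both arms. Nppa, the atrial natriuretic peptide gene, stood at 94.5 and 123 CPM in AngII 5 mg and 429 and 508 CPM in Sham 5 mg, against 185 and 199 CPM in AngII vehicle and 318 and 685 CPM in Sham vehicle. The groups were apart in AngII and overlapped in Sham, and the log2 fold change was -0.46 ± 0.29 (95% interval -1.09 to 0.17; edgeR adjusted p = 1.00). The other fixed genes were at -0.40 ± 0.25 for the related peptide Nppb, -0.48 ± 0.26 for skeletal actin Acta1, 0.064 ± 0.27 for fetal myosin Myh7 and -0.19 ± 0.34 for adult myosin Myh6. The matrix genes were at -0.24 ± 0.34 for Col1a1, -0.17 ± 0.29 for Col3a1, which shares exon bases with Gm47302, and -0.022 ± 0.32 for Postn. The 95% intervals of these 7 genes reached no further than -1.05 or 0.67, and each had an edgeR adjusted p of 1.00. In the fetal and hypertrophy programme 0 of 20 genes passed, with 8 above and 12 below 0. Of 41 matrix and fibrosis genes 0 passed, with 21 above and 20 below 0. None of the 41 had an unadjusted p under 0.05, a level reached by only 1.97% of all genes tested. The matrix genes with the smallest p were the latent TGF-beta binding protein gene Ltbp2 (1.16), the collagen gene Col14a1 (0.72) and the secreted glycoprotein gene Fstl1 (0.40).

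Atrial light chains stood lower at 5 mg in both arms, at low levels, and Myl7 was near the detection floor in both Sham groups. Myl4 had 0.782 and 0.230 CPM in AngII 5 mg and 0.436 and 0.588 CPM in Sham 5 mg, against 2.42 and 0.979 CPM in AngII vehicle and 1.27 and 0.820 CPM in Sham vehicle (log2 fold change -1.38 ± 0.49, edgeR adjusted p = 1.00). Myl7 had 0.0526 and 0.141 CPM in AngII 5 mg and 0 counts in both Sham 5 mg libraries, against 1.30 and 0.595 CPM in AngII vehicle and 0.0757 and 0.0490 CPM in Sham vehicle. Of 8 atrial cardiomyocyte markers 0 passed, 6 lay below 0 and the median was -0.52; the third in order of p was Nr2f2, an atrial identity factor (-0.59 ± 0.34). Their summed level, of which Nppa made up 96.0%, was 109 and 136 CPM in AngII 5 mg and 440 and 520 CPM in Sham 5 mg, against 199 and 210 CPM in AngII vehicle and 335 and 700 CPM in Sham vehicle. In such bulk samples fewer cells of a type and less RNA per cell cannot be told apart.

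Muscle lists had medians a little below 0, and their difference between arms was not tested. With 1 library left out, the median ran from -0.35 to -0.027 for sarcomere and Z-disc genes. It ran from -0.34 to -0.15 for calcium handling and ion channel genes and from -0.34 to 0.023 for cardiomyocyte markers. Of 25 sarcomere and Z-disc genes 0 passed and 22 lay below 0 (median -0.15; 0.01 in AngII and -0.20 in Sham). The Z-disc gene Nebl was at -0.43 ± 0.19 and the M-band gene Myom2 at -0.40 ± 0.20. With AngII 5 mg number 4 and Sham 5 mg number 10 both left out, the count below 0 was 12 (median 0.03). Of 26 calcium handling and ion channel genes 0 passed and 22 lay below 0 (median -0.22; -0.07 in AngII and -0.30 in Sham), with the pacemaker channel Hcn2 at -0.56 and the calcium pump Atp2a2 at -0.31. The count below 0 was 17 without AngII 5 mg number 4 and also 17 when Sham vehicle number 7 was left out. It was again 17 with AngII 5 mg number 4 and Sham 5 mg number 10 both left out (median -0.12), and the median was -0.34 without AngII 5 mg number 3. Of 12 cardiomyocyte markers 10 lay below 0 (median -0.07), and with the same 5 mg libraries left out 4 did (median 0.09). They summed to 9530 and 5304 CPM in AngII 5 mg and 5554 and 5146 CPM in Sham 5 mg, against 8802 and 6167 CPM in AngII vehicle and 7052 and 5431 CPM in Sham vehicle. The angiotensin receptor gene Agtr1a, through which angiotensin II acts, was at 0.993 and 1.25 CPM in AngII 5 mg and 1.85 and 0.748 CPM in Sham 5 mg, against 2.42 and 1.64 CPM in AngII vehicle and 2.2 and 1.86 CPM in Sham vehicle. Its groups did not overlap in either arm (log2 fold change -0.75 ± 0.34, edgeR adjusted p = 1.00), and of the 18 tested renin-angiotensin and adrenergic genes 0 passed, with 11 below 0. The peptidase gene Enpep in that list was at -0.87 ± 0.77.

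Genes of the interferon response, cytokines and macrophage markers lay above 0 more often than below, and other immune cell markers were mixed. Of 34 interferon-stimulated genes 0 passed and 26 lay above 0 (24 to 29 with 1 library left out), with a median of 0.22. Gbp2, a guanylate binding protein gene, stood at 1.45 and 1.55 CPM in AngII 5 mg and 2.40 and 1.71 CPM in Sham 5 mg, against 0.887 and 0.793 CPM in AngII vehicle and 0.682 and 1.10 CPM in Sham vehicle. Isg15, a ubiquitin-like modifier, stood at 1.33 and 1.59 CPM in AngII 5 mg and 1.70 and 2.33 CPM in Sham 5 mg, against 0.677 and 1.19 CPM in AngII vehicle and 0.985 and 0.906 CPM in Sham vehicle. Both separated in both arms (log2 fold changes 1.01 ± 0.32 and 0.87 ± 0.32, edgeR adjusted p = 1.00 each), and Oas1a, an RNA sensor, was at 0.95 ± 0.44. Of 30 tested cytokine and chemokine genes 0 passed and 19 lay above 0. Il18, a cytokine released by the inflammasome, had 0.105 and 0.0706 CPM in AngII 5 mg and 0.283 and 0.374 CPM in Sham 5 mg, against 0 in all 4 vehicle libraries. The chemokine gene Ccl9 was at 2.03 ± 0.65 and the alarmin gene Il33 at 1.27 ± 0.46, both with overlap in AngII. Of the immune cell markers tested, 3 of 4 of neutrophils (median 0.98), 4 of 7 of T cells (median 0.60), 6 of 10 of B cells (median 0.05) and 0 of 4 of mast cells (median -1.36) lay above 0. The medians in AngII and in Sham were -0.45 and 0.78 for T cells and 0.45 and -0.36 for B cells. Neutrophil markers summed to 1.39 and 0.812 CPM in AngII 5 mg, against 1.87 and 1.90 CPM in AngII vehicle. In Sham they summed to 1.98 and 1.02 CPM at 5 mg, against 0.776 and 0.796 CPM with vehicle. Without Sham 5 mg number 9 the T cell median was -1.20, and with AngII 5 mg number 4 and Sham 5 mg number 10 both left out 2 of the 10 B cell markers lay above 0 (median -0.47).

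Of 14 macrophage markers 0 passed, 13 lay above 0 and the median was 0.72 (0.81 in AngII and 0.40 in Sham). Cd68 was at 0.88 ± 0.35 and separated in both arms, and the complement genes C1qa and C1qb were at 0.81 ± 0.36 and 0.77 ± 0.35. The summed level of the list was 42.3 and 110.1 CPM in AngII 5 mg and 76.6 and 88.3 CPM in Sham 5 mg, against 30.01 and 54.6 CPM in AngII vehicle and 41.0 and 81.9 CPM in Sham vehicle. AngII 5 mg number 4 was the highest of all, and without it the median was 0.17. With AngII 5 mg number 4 and Sham 5 mg number 10 both left out, 9 of 14 lay above 0 with a median of 0.15. Ctsz and the interferon genes were higher in the same groups as this list, though not library by library. AngII 5 mg number 3 had the highest Ctsz but a list sum of 42.3 CPM, against 81.9 CPM in Sham vehicle number 8. The list's part in the values of these genes was not tested.

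Transcripts typical of liver were higher in 3 of the 4 libraries at 5 mg and in 1 of the 4 vehicle libraries. The 16 liver markers summed to 27.1 and 102 CPM in AngII 5 mg and 4.03 and 72.9 CPM in Sham 5 mg, against 4.01 and 48.1 CPM in AngII vehicle and 3.47 and 4.58 CPM in Sham vehicle. All 16 lay above 0 (median 3.02) and 0 passed; fitted values of members with no count in a group depend on the fit. The median was 1.20 without Sham 5 mg number 10. Leaving out the 2 highest libraries, AngII 5 mg number 4 and Sham 5 mg number 10, 8 of 16 lay above 0 with a median of -0.0080. Apoa1, an apolipoprotein gene of the liver, stood at 1.39 and 11.1 CPM in AngII 5 mg and 0 and 4.90 CPM in Sham 5 mg, against 0.0763 and 3.11 CPM in AngII vehicle and 0 in both Sham vehicle libraries. Fgb and Hp, which encode fibrinogen beta and haptoglobin, had p-values next to it. With no filter on low counts edgeR called 79 of 23596 genes, of which 12 belonged to these 16 markers. Of the 79, 4 had not been tested with the filter.

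Of the other lists, ribosomal proteins lay above 0 for 42 of 45 genes (median 0.16), with all 45 above 0 in AngII and 9 in Sham. Rpl11, Rpl37 and Rpl26 had the smallest p of them, with log2 fold changes of 0.38, 0.25 and 0.26. Their reads are uncertain because of near-identical copies, and without AngII 5 mg number 4 the count was 14. All 13 mitochondrially encoded genes lay above 0 (median 0.13; mt-Atp6 0.28, mt-Nd4 0.19 and mt-Nd1 0.15), and without that library all 13 lay below 0 (median -0.25). Of 29 immediate-early genes 24 lay above 0 (median 0.25), with the transcription factor genes Fos at 0.98 ± 0.49, Egr2 at 2.78 ± 1.55 and Fosb at 1.28 ± 0.75, and without AngII 5 mg number 3 the count was 16. Red cell markers summed to 1516 and 2070 CPM in AngII 5 mg and 748 and 356 CPM in Sham 5 mg, against 1005 and 1552 CPM in AngII vehicle and 1711 and 1284 CPM in Sham vehicle, and all 8 lay below 0 for the common effect (median -0.45; 0.41 in AngII and -1.41 in Sham). Without Sham 5 mg number 10 the median was -0.12, with 6 of 8 below 0, and without AngII vehicle number 1 it was -0.80.

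Among 22 heat shock chaperone genes 16 lay above 0 (median 0.09), with the inducible genes Hspa1b and Hspa1a at 1.64 ± 0.51 and 0.90 ± 0.43, which are near-identical copies of each other and so uncertain, and the mitochondrial co-chaperonin Hspe1 at 0.38 ± 0.21. Of 21 glucocorticoid-responsive genes 13 lay above 0, with Pdk4 and Angptl4 (-0.87 ± 0.35), an inhibitor of lipoprotein lipase, below 0 and Tsc22d3 above it. Of 21 circadian clock genes 12 lay above 0, with Hlf above and Npas2 (-2.21 ± 1.11) below 0 and the repressor Cry1 at 0.58 ± 0.34. Of 29 apoptosis and autophagy genes 18 lay above 0, with the pore-forming gene Bak1 at 0.55 ± 0.21 and the survival gene Bcl2l1 at 0.47 ± 0.22. None of these genes passed, and each had an edgeR adjusted p of 1.00 apart from Pdk4. Over the 26 pathway lists the median log2 fold change ran from -0.22 to 0.25, and 0 members of any list passed.

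**Figure D5:**
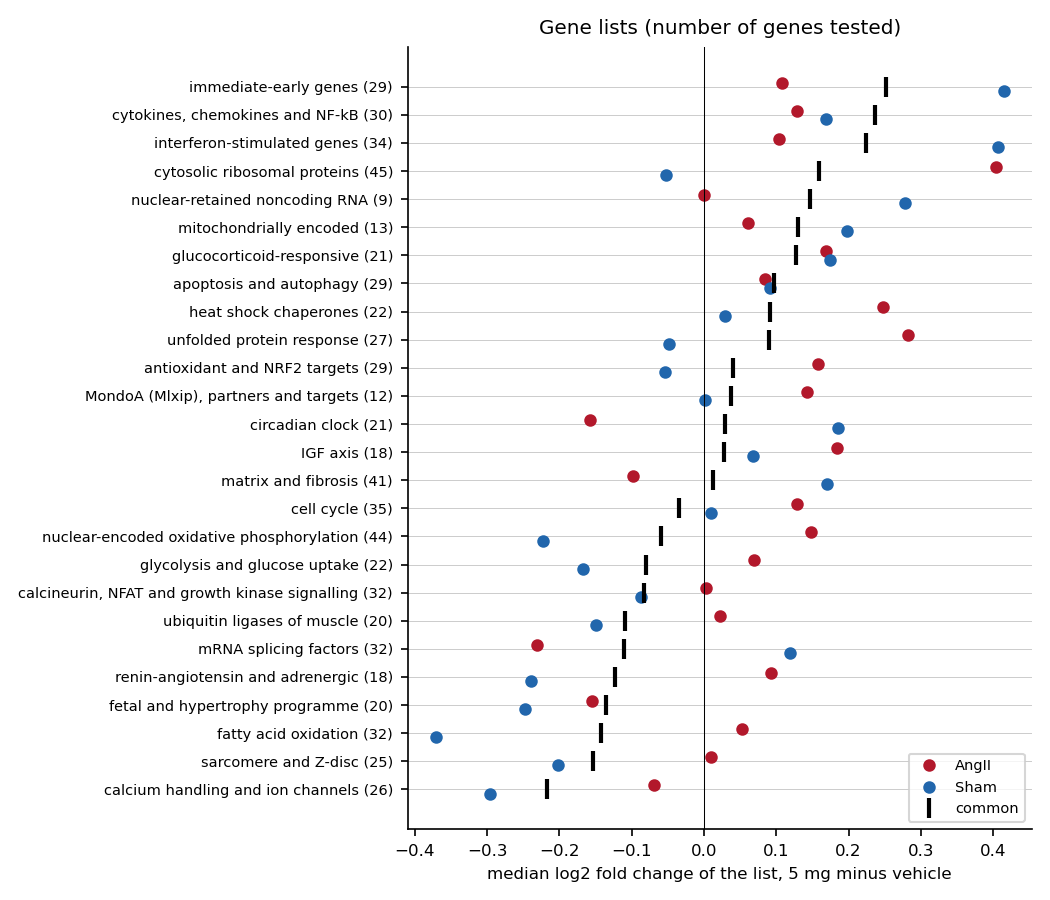
Median log2 fold change of 5 mg against vehicle for 26 pathway lists (number of genes tested in brackets), in AngII (red), in Sham (blue) and in common (black ticks). The fatty acid list lies at 0.05 in AngII and -0.37 in Sham, and the ribosomal protein list at 0.40 in AngII and -0.05 in Sham.

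Both doses were compared in a fit that leaves out the vehicle libraries. Gastrodin at 50 against 5 mg/kg/day, with arm as a block, gave 1 called gene of 16087 (0.00622%), with 334 at an unadjusted p under 0.05 (2.08%). It was Gm15772, a processed pseudogene on chromosome 5 picked after its values were seen. It had 1614 and 3911 counts in AngII 50 mg and 2453 and 3016 in Sham 50 mg, against 386 and 263 counts in AngII 5 mg and 211 and 143 in Sham 5 mg (log2 fold change 3.25 ± 0.32, edgeR adjusted p = 0.00617). The call was lost with all 12 libraries in the fit and without Sham 5 mg number 9, and DESeq2 called 4 genes. Reads of such copies are uncertain, and the vehicle libraries held 167 and 1560 in AngII and 514 and 292 in Sham. The ribosomal protein gene Rpl26, a name RefSeq lists as a synonym of Gm15772, stood at 28.8 and 34.9 CPM in AngII 50 mg and 46.8 and 37.8 CPM in Sham 50 mg, against 59.2 and 69.7 CPM in AngII 5 mg and 64.7 and 75.6 CPM in Sham 5 mg. These CPM were scaled over all 12 libraries for 50 mg and over the 8 libraries of the main comparison for 5 mg. The log2 fold change of Rpl26 was -0.89 ± 0.22 (edgeR adjusted p = 1.00), and DESeq2 called it at -0.90 (adjusted p = 0.0181). Whether reads were split between both genes was not tested. Pdk4 at 50 mg was at -0.56 ± 0.37 relative to 5 mg (edgeR adjusted p = 1.00). Relative to the same vehicle libraries as the 5 mg value, in a fit of all 12 libraries, it was at -2.0 ± 0.32 for 50 mg and -1.43 for 5 mg. Ucp3 was at -1.21 ± 0.73 for 50 against 5 mg, Hadh at -0.018 ± 0.23 and Lrp10 at 1.18 ± 0.31, with an edgeR adjusted p of 1.00 each.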

How the data were processed

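The authors deposited raw counts for 27504 genes and, per the file headers, TPM values for 14271 genes. The submitters' processing notes name StringTie 2.1.3, HISAT2 2.2.1 and the build GRCm38.p6. Per the labels' protocols, total RNA was made into TruSeq libraries and read as paired ends. The sources used here do not state how reads were counted, the annotation release or the strand setting. Positions and overlaps came from GENCODE M21.

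The counts were filtered with filterByExpr, scaled by TMM and fitted in edgeR 4.0.16 (R 4.3.3) with arm and dose over 8 libraries (5 residual degrees of freedom, prior 6.52). The quasi-likelihood F-test was 2-sided with Benjamini-Hochberg adjustment and a threshold of 0.05; every p above without another name is from it. Values within arms and their difference came from a fit of 1 mean per group. Each standard error is the log2 fold change over the square root of its F statistic. The script for the fits was tested on simulated data. Where a group held no count, the fold was bounded with a floor of 3 counts over that group, which covers counting error only.

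Alternatives were DESeq2 1.42.0 size factors and Wald test, limma 3.58.1 voom, other filters, all 12 libraries, genes left out, no block, a 1.5-fold limit, limma-trend on log2(TPM + 1) and log2(TPM + 0.1), the share of other genes as a covariate, and each library left out with the genes kept. Summing overlapping genes, leaving out both AngII 5 mg number 4 and Sham 5 mg number 10, and other scalings of the count of separated genes were added after seeing the data. The members, the 26 pathway and 22 cell type lists, the tests and the naming rule were chosen with earlier results of these data known. The rule names, among genes that are not predicted and have a mean log2 CPM of at least 1, the 12 called genes or else the 12 smallest p in each direction for the common effect, the 3 smallest p in each arm and for the difference, 11 fixed genes, and the 3 smallest p of each described list. Of the listed symbols 12 were not matched. No column lacked a sample. A few genes picked by the naming rule are not reported here.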

Additional observations from a re-analysis of the deposited data

Results flagged for a closer look

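Baiap2l1 differed in opposite directions in the arms, with both 5 mg libraries above both vehicle libraries in AngII and below both in Sham. The AngII effect minus the Sham effect was 6.69 ± 0.92 on the log2 scale (edgeR adjusted p = 0.356; DESeq2 adjusted p = 5.03e-11; called by edgeR with all 12 libraries in the fit, adjusted p = 0.0473), so the test of the difference over all genes did not pass in the 8 libraries.

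Pcdhgc3, a clustered protocadherin gene, also differed in opposite directions, at 2.02 and 3.14 CPM in AngII 5 mg, against 0.362 and 0.793 CPM in AngII vehicle, and at 1.33 and 0.926 CPM in Sham 5 mg, against 3.11 and 5.6 CPM in Sham vehicle. The AngII effect minus the Sham effect was 4.11 ± 0.74 (edgeR adjusted p = 0.806). With the genes of its cluster that share exon bases summed, it was 0.31. Both genes were found among the 578 genes (3.61% of those tested) whose libraries separate in opposite directions.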

How the results depend on the processing

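No paired analysis was possible because the library numbers run from 1 to 12 and groups share none. The common count of 0 stayed at 0 in 14 of 16 alternatives; DESeq2 called 3 (1 higher, 2 lower) and edgeR with no filter on low counts 79 (59 higher, 20 lower), and it was 0 to 1 with 1 library left out (Zfp46, without Sham vehicle number 8). Beside Pdk4, the common calls with no filter included Zfp46, Lrp10, Irx3 and Ucp3, which were lower at 5 mg. They also included Igf2, Mlxip, Frmd5, Mier1 and Epn2, which were higher (edgeR adjusted p 7.93e-17 to 0.0224 over these genes). In AngII, DESeq2 called 9, the fit of all 12 libraries 1 and no filter 42, with 0 to 1 without 1 library (Mlxip, without AngII 5 mg number 4). In Sham these were 25, 3 and 123, with 0 whichever library was left out, and for the difference between arms 16, 1 and 75, with 0. For 50 against 5 mg they were 4, 0 and 71, with 2 from 1 mean per group averaged over arms and 0 to 2 without 1 library (2 without AngII 5 mg number 3, 0 without Sham 5 mg number 9). The count of genes separated in both arms was 49 on TPM. The cause of these differences was not tested.

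The difference in the share of counts outside mitochondrial and ribosomal RNA genes ran from -2.97 to 3.41 points without 1 library, and its sign turned without AngII 5 mg number 3 (-2.97), Sham 5 mg number 10 (-0.24), AngII vehicle number 2 (-0.90) or Sham vehicle number 7 (-0.49). Among named genes, Igf2 in Sham was -0.24 with its overlapping gene summed, Myh6 was 0.043 with AngII 5 mg number 4 and Sham 5 mg number 10 both left out, and Postn was 0.011 with limma-voom and 0.051 with no arm block. Without 1 library, Myh7 ran from -0.17 to 0.19, Col1a1 from -0.46 to 0.19, Col3a1 from -0.40 to 0.071, Postn from -0.25 to 0.21 and Igf2r from -0.34 to 0.12. None of these 5 genes, nor Myh6, was called under any alternative. With 2 libraries per group the biological coefficient of variation of 0.482 limits what could be called.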
